A study of Saccharomyces cerevisiae with 20 samples.

Results

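The strain overexpressing *SFL1* was compared with the strain overexpressing *ROF1* (YHR177W). These are the strains with the lowest and the highest transcripts of the flocculin gene *FLO11* among 5 overexpression strains of *Saccharomyces cerevisiae*. Of the 20 libraries in the series, 8 belong to this pair, 4 from each strain. The features compared were the 5772 of 6575 ORFs (names beginning with Y) with a median of at least 1 CPM, counts scaled to each library's total, over the 20 libraries. The lowest median kept was 1.008 CPM and the highest left out was 0.9986 CPM. Of the 803 ORFs left out, 65 had no count in any library.

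The study looked for genes whose extra copies reduce or remove the structure of the "fluffy" colonies of the strain F45, and measured the transcripts of the resulting strains. It graded the loss of structure as very strong for *SFL1* and *HEK2*, intermediate for *ROF1* and *SAN1*, and weak for *TOS8*. The *SFL1* and *ROF1* strains thus differ in colony form too, and its part in the differences below was not tested. Each sample pooled 3 to 5 colonies scraped after 4 d on YPD plates (2% glucose with G418 for plasmid selection) at 30°, and was made into a stranded mRNA library. The F45 strain with an empty vector was not analysed here, so a difference between the *SFL1* and *ROF1* strains can come from either side. The *SFL1* strain was F45 with *SFL1* on the low-copy centromeric plasmid p5472, and the *ROF1* strain was F45 with *ROF1* on the same plasmid, each gene under its own promoter. The *HEK2*, *SAN1*, and *TOS8* strains, used here for reference, were built in the same way. Every strain shared the F45 genotype, haploid *MAT*a *ho*∆0::*hphMX6* with *SPS2*:*EGFP*:*natMX4* and an unmapped serine auxotrophy. A plasmid of this kind raises a gene by a few copies, and whole colonies hold cells in many states, so a lower level can mean fewer cells of a type or less RNA per cell.

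*FLO11* encodes a cell wall glycoprotein that binds cells to each other and to agar, and structured colonies and invasive growth depend on it. Its long promoter takes inputs from the filamentation MAPK cascade, through the transcription factors Tec1 and Ste12, and from the Ras, cAMP, and protein kinase A pathway, through the activator Flo8 and the repressor Sfl1. Sfl1 has a DNA-binding domain of the heat shock factor type and represses *FLO11*, other flocculin genes, and *SUC2* together with the Cyc8-Tup1 corepressor. Rof1 is a WOPR-domain protein and the paralog of Mit1, an activator of *FLO11* and of filamentous growth. In the paper, extra *ROF1* reduced colony structure in F45, and its deletion increased it in a related strain.

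Total counts ranged from 13254854 to 33205015 in the *SFL1* libraries and from 7265872 to 24927822 in the *ROF1* libraries. The *ROF1* libraries were the more spread out of the pair. Of the 881 ORFs called below, replicate 4 was the *ROF1* library nearest to the *SFL1* strain in 541 (61.4%), and replicate 2 was the farthest in 492 (55.8%). Without *ROF1* replicate 2, 519 ORFs were called, and without *ROF1* replicate 4, 1010 were called. Markers of *MAT*a cells (*STE2*, *MFA1*, *MFA2*, *STE6*, and *BAR1*) were all counted, with a summed level of 406 to 454 normalized CPM in the *SFL1* libraries and 615 to 815 in the *ROF1* libraries. The summed level of 4 α-cell markers was 76.3 to 84.4 in the *SFL1* libraries and 80.4 to 97.7 in the *ROF1* libraries. That of 5 meiotic genes was 43.1 to 48.5 in the *SFL1* libraries and 34.5 to 54.7 in the *ROF1* libraries, and none of these 14 genes was at 0. Nothing in the sources used here says whether the 4 samples of a strain came from separate cultures, so p-values measure the spread between these samples, which may be technical.

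*SFL1* (YOR140W, chromosome XV, 586981 to 589281, genome build R64) had 237, 238, 239, and 228 normalized CPM in the 4 *SFL1* libraries, against 49.0, 42.8, 46.5, and 52.4 in the 4 *ROF1* libraries. The difference was 2.31 (SE 0.06, adjusted p = 1.4e-16) on the log2 scale in the edgeR quasi-likelihood test, adjusted by Benjamini-Hochberg, which stands behind every fold change given here. *ROF1* (YHR177W, chromosome VIII, 456591 to 457952) had 8.51, 7.90, 11.7, and 11.4 normalized CPM in the *SFL1* libraries and 22.1, 24.0, 28.8, and 27.6 in the *ROF1* libraries (log2 fold-change -1.34, SE 0.12, adjusted p = 1.6e-07). Both plasmid genes were therefore higher in their own strain without overlap, and *ROF1* stayed the less abundant message of the pair. The annotated neighbours *RUP1* and *ARP8* of *SFL1*, and *FMO1* and *STB5* of *ROF1*, were not called, with log2 fold-changes between 0.05 and 0.24. *MIT1*, the paralog of *ROF1*, had 149, 154, 146, and 149 normalized CPM in the *SFL1* strain and 115, 124, 130, and 119 in the *ROF1* strain, a rise of 0.30 (SE 0.07, adjusted p = 0.0041). The call of *MIT1* was lost without *ROF1* replicate 1 or 2 or *SFL1* replicate 1 or 2 (adjusted p between 0.010 and 0.017).

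*FLO11* (YIR019C, chromosome IX, 389572 to 393675) chose this pair of strains, and its levels are given as a description with no test. It had 733, 854, 927, and 741 normalized CPM in the *SFL1* strain and 12100, 12500, 13000, and 10100 in the *ROF1* strain, -3.87 on the log2 scale. The means of the other strains lay between these, at 4160 ± 762 in *HEK2*, 6380 ± 643 in *TOS8*, and 7860 ± 1210 in *SAN1* (SD, n = 4 each), and of these neighbours in the order only *TOS8* and *SAN1* had overlapping libraries. *PWR1*, a noncoding RNA made from the *FLO11* promoter, had 1.01, 1.03, 0.924, and 0.743 normalized CPM in the *SFL1* libraries, against 10.6, 8.48, 9.71, and 7.20 in the *ROF1* libraries. *ICR1*, the opposing noncoding RNA that crosses the same promoter, had 17.6, 17.7, 18.4, and 19.8 in the *SFL1* libraries, against 16.9, 14.7, 17.6, and 18.3 in the *ROF1* libraries, which overlapped. Both noncoding RNAs were picked after their values were seen.

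**Figure D1:**
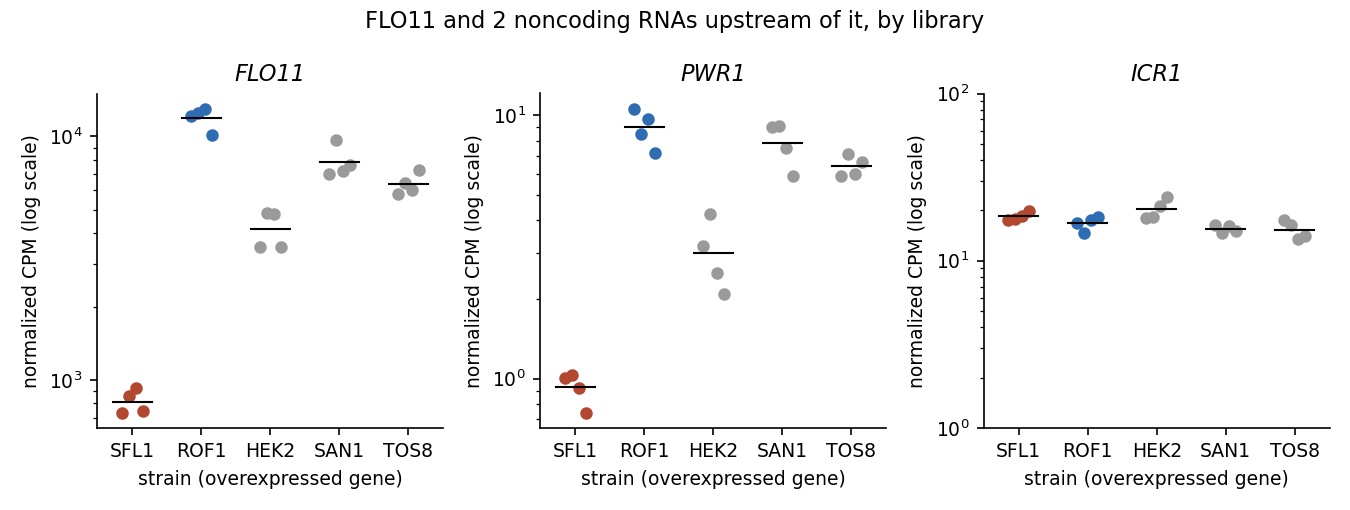
Normalized CPM (log scale) of *FLO11* and of the noncoding RNAs *PWR1* and *ICR1* in each library of the 5 strains, with the *SFL1* and *ROF1* strains on the left. Points are libraries and lines are means of 4. *FLO11* and *PWR1* were lowest in all 4 *SFL1* libraries and highest on average in the *ROF1* strain, whereas *ICR1* averaged 18.4 in *SFL1* and 16.9 in *ROF1*.

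Across the 5772 ORFs, 881 (15.3%) were called at a false discovery rate below 0.01. The *SFL1* strain was higher in 437 (7.57%) and lower in 444 (7.69%). These shares, with the 15.3% called in either direction, are the background for every gene list given below. Most differences were small. The median size among called ORFs was 0.40 on the log2 scale, 615 of the 881 differed by no more than 0.5, and 48 (0.832% of the ORFs) by more than 2-fold, of which 22 were higher and 26 lower in the *SFL1* strain. Normalized CPM did not overlap between the 4 and 4 libraries in 1652 ORFs (28.6%), and in 842 of the 881 called ORFs (95.6%). The 881, the 48, and the 842 include *FLO11*, which chose the pair, and the plasmid genes *SFL1* and *ROF1*. These genes stay in the totals of called ORFs below unless left out by name, and are not counted in the gene lists. The median log2 fold-change over all ORFs was -0.00087, and the 16 chromosomes had medians between -0.062 and 0.029.

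**Figure D2:**
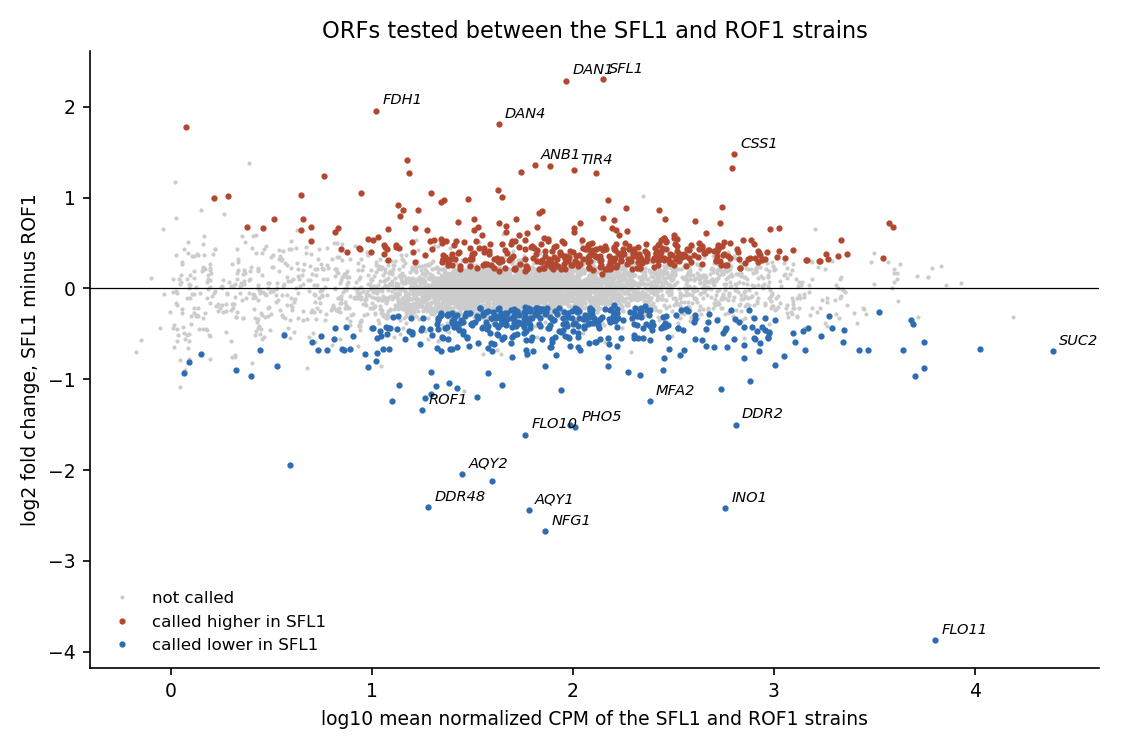
Log2 fold-change between the *SFL1* and *ROF1* strains (y axis) against the log10 mean normalized CPM of the pair (x axis) for the 5772 ORFs tested. Red points are the 437 ORFs called higher and blue points the 444 called lower in the *SFL1* strain. *FLO11*, which chose the pair, lies lowest at -3.87, and *SFL1* lies highest at 2.31.

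The 12 largest rises and the 12 largest falls, leaving out *FLO11* and the plasmid genes, were chosen among called ORFs without overlap. Cell wall mannoproteins and genes of low-oxygen growth made up most of the rises (*DAN1*, *DAN4*, *TIR2*, *TIR4*, *HPF1*, *CSS1*, *ANB1*, *AAC3*, and *HES1*), joined by *FDH1*, *PRY3*, and *OPT1*. The falls held 2 aquaporin genes with the ORF next to *AQY2* (*AQY1*, *AQY2*, and YLL053C). They also held the stress genes *DDR2* and *DDR48* with the ORF that overlaps *DDR48* (YMR173W-A). The others were *NFG1*, an output of the filamentation MAPK cascade, the flocculin *FLO10*, the mating pheromone gene *MFA2*, and *INO1*, *PHO5*, and *PNS1*. *ROF1* replicate 4 was the *ROF1* library closest to the *SFL1* strain for all 12 rises and for 10 of the 12 falls. Each of these 24 ORFs stayed called without any one of the 8 libraries. YLL053C overlaps *AQY2*, and YMR173W-A overlaps *DDR48*, on the same strand, so the counts of each pair are not independent.

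**Figure D3:**
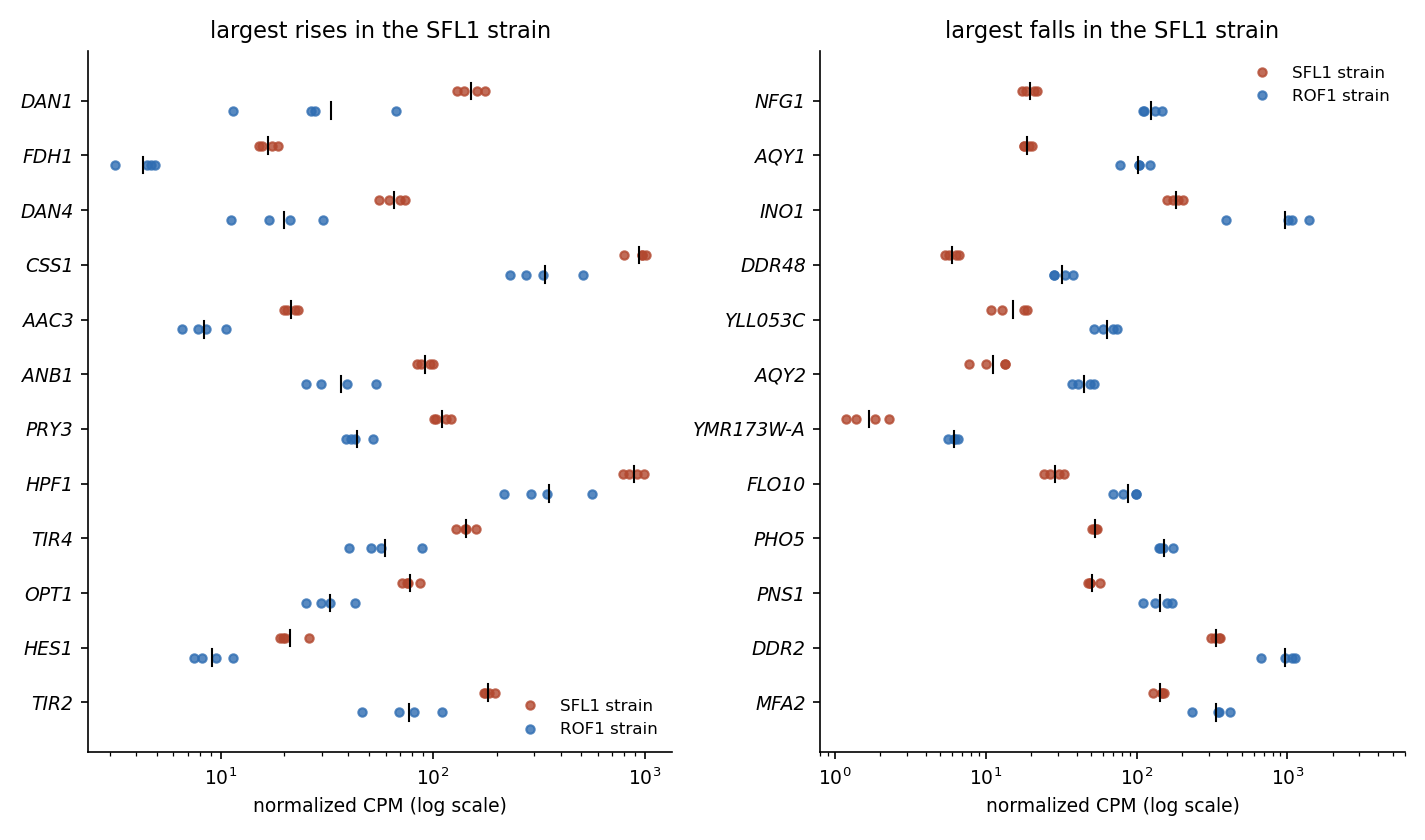
Normalized CPM (log scale) of the 12 largest rises and the 12 largest falls in the *SFL1* strain (red, upper row of each gene) and the *ROF1* strain (blue, lower row). Points are the 4 libraries of a strain and ticks their means, and no gene shown has overlapping strains.

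The genes called in the lists of filamentation and its MAPK cascade were lower in the *SFL1* strain, apart from *MIT1* above. An output of the cascade can promote or restrain filamentation, and its place in a list does not say which. All 3 tested outputs of the filamentation MAPK cascade fell, and so did 5 of its 13 components, with no component higher, against 7.69% of all ORFs called lower (median log2 fold-change -0.10 for the components, against -0.00087 for all ORFs). *NFG1* (YLR042C, chromosome XII, 229966 to 230451), a gene of the cascade's transcriptional response, had 20.9, 17.5, 21.7, and 18.5 normalized CPM in the *SFL1* libraries and 112, 133, 147, and 110 in the *ROF1* libraries, a difference of -2.67 (SE 0.16, adjusted p = 2.9e-10). Its strains were separated by a wide gap, the highest *SFL1* library standing at 21.7 and the lowest *ROF1* library at 110. *SVS1*, a cell wall protein gene, had 95.0, 114, 125, and 114 in the *SFL1* libraries and 159, 204, 218, and 171 in the *ROF1* libraries (log2 fold-change -0.75, SE 0.11, adjusted p = 3.3e-05). *CLN1*, a G1 cyclin whose activity promotes filaments, had 77.0, 76.7, 87.3, and 92.6 in the *SFL1* libraries and 123, 127, 141, and 128 in the *ROF1* libraries (log2 fold-change -0.64, SE 0.11, adjusted p = 1.8e-04). Neither gene overlapped between the strains.

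Among the components, the largest falls were in the cascade's own transcription factor and its surface sensor. *TEC1* had 34.5, 38.0, 40.4, and 35.4 normalized CPM in the *SFL1* libraries and 52.1, 65.0, 69.6, and 62.6 in the *ROF1* libraries (log2 fold-change -0.75, SE 0.08, adjusted p = 2.1e-06). *MSB2*, the mucin at the head of the cascade, had 258, 265, 300, and 277 in the *SFL1* libraries and 394, 388, 475, and 509 in the *ROF1* libraries (log2 fold-change -0.68, SE 0.10, adjusted p = 4.0e-05). The other components that fell were the MAP kinase *KSS1*, the factor *STE12*, and the sensor *SHO1*, with log2 fold-changes of -0.60 to -0.28. Of 11 activators of *FLO11* and filamentation, *MIT1* rose and 4 fell, namely *PHD1*, *TEC1*, *STE12*, and *MSS11*. *PHD1*, which overlaps another feature of its strand, had 64.3, 65.0, 47.2, and 43.4 normalized CPM in the *SFL1* libraries and 134, 127, 109, and 106 in the *ROF1* libraries (log2 fold-change -1.12, SE 0.14, adjusted p = 6.0e-06). *FLO8*, the activator that Sfl1 opposes, was not called (-0.06). *MGA1*, a heat shock factor type regulator of filamentation, had 28.1, 25.8, 11.5, and 10 in the *SFL1* libraries and 52.6, 50.6, 32.4, and 20.1 in the *ROF1* libraries, and the strains overlapped. Its difference of -1.13 was not called (SE 0.34, adjusted p = 0.017), but with the replicate number as a block it was (adjusted p = 0.00095), as it was without *ROF1* replicate 4 (0.0054) or *SFL1* replicate 1 (0.0084). None of 10 repressors of *FLO11* was called by edgeR or DESeq2, 2 had an unadjusted p under 0.05, and log2 fold-changes lay between -0.19 and 0.30, the highest being that of *NRG2* (adjusted p = 0.068).

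Of 4 published targets of Sfl1 repression other than *FLO11*, 2 fell, and *HSP30* (-0.31) and *FLO1* (0.07) were not called. *FLO10* (YKR102W, chromosome XI, 646356 to 649865), a flocculin that can take over the adhesive role of *FLO11*, had 24.5, 26.6, 32.8, and 30.5 normalized CPM in the *SFL1* strain and 80.9, 99.4, 98.6, and 69.8 in the *ROF1* strain, a difference of -1.61 (SE 0.15, adjusted p = 1.6e-07). *SUC2*, the invertase gene, was among the most abundant messages of these colonies, with 17500, 18800, 19300, and 19500 normalized CPM in the *SFL1* libraries and 29200, 32700, 30600, and 29000 in the *ROF1* libraries (log2 fold-change -0.69, SE 0.09, adjusted p = 6.0e-06). *SUC2* did not overlap between the strains, and *FLO10* was chosen among ORFs without overlap. Against the mean of the *HEK2*, *SAN1*, and *TOS8* strains, *SUC2* was called for the *ROF1* strain (0.45, adjusted p = 2.7e-04). It was not called for the *SFL1* strain (-0.24, adjusted p = 0.013), and its *TOS8* mean (16300) was below its *SFL1* mean (18800). *FLO10* was called for both, at -1.04 (adjusted p = 6.1e-06) for *SFL1* and 0.57 (adjusted p = 0.0023) for *ROF1*. The remaining flocculins *FLO1*, *FLO5*, and *FLO9* were not called (0.07 to 0.28), and reads of these near-identical genes cannot be assigned with certainty, since no filter on mapping quality was applied.

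Of 23 genes of the pheromone response and of *MAT*a cells, 11 fell, none rose, and 12 were not called, against 7.69% of all ORFs called lower. Of the 23, 21 had a negative log2 fold-change, and the median was -0.46. *MFA2* (YNL145W, chromosome XIV, 352414 to 352530) encodes a-factor, the pheromone of *MAT*a cells. Most genes of this kind carry the pheromone response element, TGAAAC, which Ste12 binds. The 300 bases that end 51 bases before the coding start of *MFA2* (chrXIV:352064-352363, plus strand, RefSeq R64 sequence) are shown because they hold this element once, with its letters in capitals:
MFA2: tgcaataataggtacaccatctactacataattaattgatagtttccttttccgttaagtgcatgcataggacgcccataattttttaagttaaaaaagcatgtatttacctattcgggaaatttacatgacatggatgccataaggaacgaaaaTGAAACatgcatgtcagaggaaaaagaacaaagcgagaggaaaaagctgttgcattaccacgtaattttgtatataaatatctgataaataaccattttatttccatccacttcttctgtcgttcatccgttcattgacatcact
On either strand, TGAAAC lay in this window of 20 of the 23 genes, 10 of the 11 that fell and 10 of the 12 that were not called, against 18.7% of all 5772 windows. A match is a description of the sequence and not a measured binding site.

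*MFA2* had 147, 129, 152, and 147 normalized CPM in the *SFL1* libraries and 348, 418, 353, and 233 in the *ROF1* libraries, a difference of -1.24 (SE 0.15, adjusted p = 5.4e-06). *BAR1*, the protease that degrades α-factor, had 11.4, 11.8, 12.9, and 13.0 in the *SFL1* libraries and 24.5, 30.9, 30.4, and 22.9 in the *ROF1* libraries (log2 fold-change -1.16, SE 0.12, adjusted p = 1.1e-06). The strains did not overlap for *BAR1*, and *MFA2* was chosen among ORFs without overlap. The other members that fell, with log2 fold-changes of -1.04 to -0.37, were the a-agglutinin genes *AGA1* and *AGA2*, the pheromone gene *MFA1*, the receptor *STE2*, the G protein subunits *GPA1* and *STE4*, and *FUS1*, *FAR1*, and *AFR1*, which act in cell fusion and arrest. *STE3*, the a-factor receptor that marks α cells, had 20.7, 18.1, 18.8, and 19.6 normalized CPM in the *SFL1* libraries and 24.9, 30.6, 28.6, and 29.5 in the *ROF1* libraries (log2 fold-change -0.56, SE 0.08, adjusted p = 4.3e-05). The α-factor gene *MF(ALPHA)1* was near 1 to 6 normalized CPM and was called lower (log2 fold-change -0.85, SE 0.21, adjusted p = 0.0043), a call lost in 5 of the 8 fits that left out 1 library (without *ROF1* replicate 1, 3, or 4 or *SFL1* replicate 2 or 3) and with the pair's libraries alone (adjusted p between 0.011 and 0.017). *SAG1*, the remaining α-cell marker tested, was not called (log2 fold-change 0.03, adjusted p = 0.81). It averaged 58.4 normalized CPM in the *SFL1* strain and 57.4 in the *ROF1* strain. The part of cell type in the lower mating genes was not tested.

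The *HEK2* and *SAN1* strains offer a second pair that also differs in *FLO11* (log2 fold-change -0.92) and shares no library with the first. Between them 688 ORFs (11.9%) were called, 412 higher (7.14%) and 276 lower (4.78%) in the *HEK2* strain, or 400 without *SAN1* replicate 1 and 153 with these libraries alone. Of the ORFs called in either pair, 282 were called in both, which is 32.0% of the *SFL1* and *ROF1* calls and 41.0% of the *HEK2* and *SAN1* calls. The direction was the same in 276 of these, 153 higher and 123 lower, and opposite in 6. The difference of the differences itself was called in 71 ORFs (1.23%), of which 52 were also called between the *SFL1* and *ROF1* strains. Of these 52, 36 were lower in the *SFL1* strain with a difference of differences below 0, and 16 were higher with one above 0. The count of 71 was 35 to 46 without *SAN1* replicate 1, 2, or 3, *ROF1* replicate 2 or 3, *SFL1* replicate 1, 2, or 3, or *HEK2* replicate 1, 3, or 4, and 140 without *SAN1* replicate 4.

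**Figure D4:**
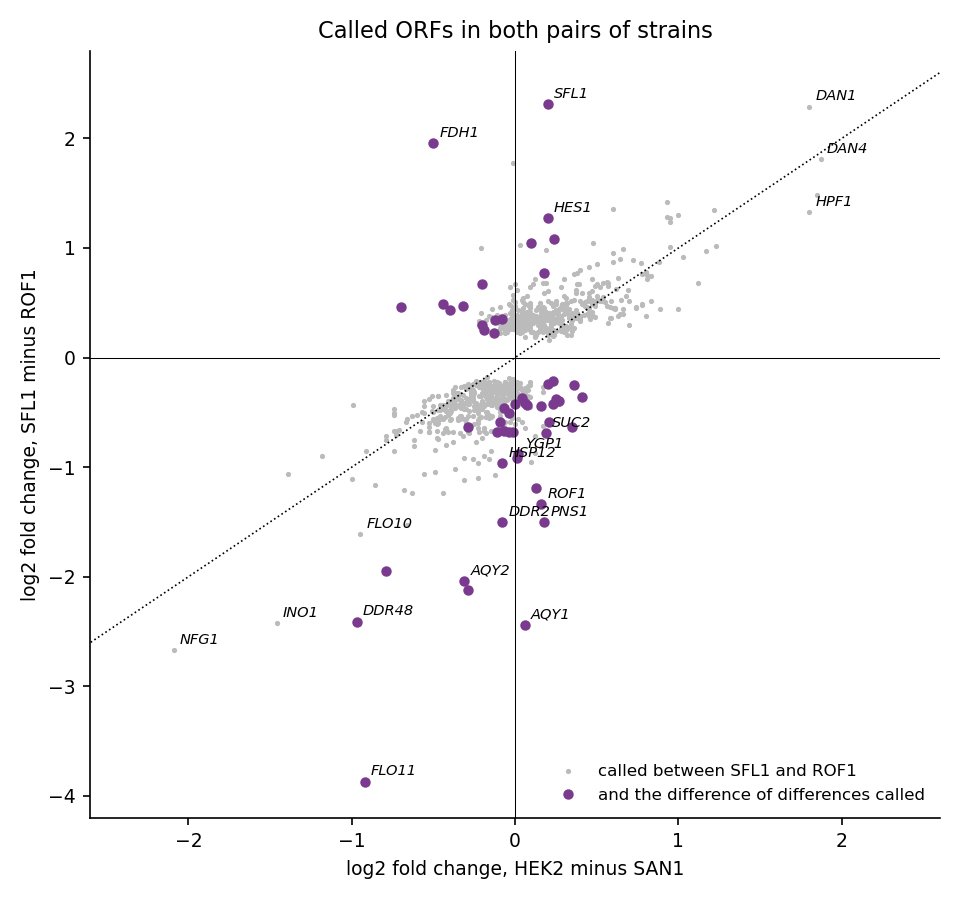
Log2 fold-change between the *SFL1* and *ROF1* strains (y axis) against that between the *HEK2* and *SAN1* strains (x axis) for the 881 ORFs called in the first pair. Purple points are the 52 ORFs whose difference of differences was also called, and the dotted line marks equal differences. *AQY1* sits at -2.44 in the first pair and 0.06 in the second, whereas *NFG1* and *DAN4* lie near the line.

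For *NFG1*, *TEC1*, *MSB2*, *SVS1*, *BAR1*, *FLO10*, *MFA2*, and *PHD1* the difference of differences was not called. *NFG1* differed by -2.09 (adjusted p = 4.8e-08) between the *HEK2* and *SAN1* strains, *TEC1* by -0.62 (adjusted p = 5.0e-05), *MSB2* by -0.53 (adjusted p = 7.6e-04), *SVS1* by -0.79 (adjusted p = 4.3e-05), and *BAR1* by -0.86 (adjusted p = 7.3e-05). *FLO10* differed by -0.95 (adjusted p = 1.7e-04) and *MFA2* by -0.63 (adjusted p = 0.0041). These genes were thus lower in the strain with less *FLO11* in both pairs. *PHD1* was an exception in the second pair, where its -0.31 (adjusted p = 0.11) was not called. The *TOS8* strain had a higher *FLO11* mean than *HEK2* (6380 against 4160 normalized CPM). Its means of *MFA2* (150 against 199) and *BAR1* (11.6 against 15) were lower than in *HEK2*. The means of *NFG1*, *TEC1*, *MSB2*, *SVS1*, *FLO10*, and *PHD1* were higher in *TOS8* than in *HEK2*. Whether these genes follow the level of *FLO11* was not tested. Relative to F45, the paper describes the *SFL1* and *HEK2* profiles as very similar, and also the *ROF1* and *SAN1* profiles. It further proposes that all of these strains took on one shared profile, to differing extents.

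Leaving out *FLO11* and *ROF1*, 34 ORFs were called lower in the *SFL1* strain with a difference of differences below 0. Of these, 27 were not called between the *HEK2* and *SAN1* strains, and 31 had their lowest mean of the 5 strains in the *SFL1* strain. The way these ORFs were chosen favours both counts, which are given as a description. *AQY1* (YPR192W, chromosome XVI, 921860 to 922777), a water channel of the plasma membrane, had 19.2, 17.9, 20.4, and 18 normalized CPM in the *SFL1* libraries and 104, 123, 104, and 77.2 in the *ROF1* libraries, a difference of -2.44 (SE 0.15, adjusted p = 2.4e-10). It averaged 113 ± 10.2 in the *HEK2* strain and 110 ± 25.4 in the *SAN1* strain (SD, n = 4 each), and the difference of differences was -2.50 (adjusted p = 3.6e-08). *AQY2* (YLL052C, chromosome XII, 35912 to 36361), its paralog, had 13.5, 13.5, 10, and 7.72 in the *SFL1* libraries and 52.4, 49.4, 40.7, and 37.3 in the *ROF1* libraries, a difference of -2.04 (SE 0.14, adjusted p = 3.0e-09), with a difference of differences of -1.73 (adjusted p = 1.0e-05). YLL053C (chromosome XII, 35503 to 35961), which forms a single aquaporin gene with *AQY2* in some other yeast strains, had 17.9, 18.8, 12.8, and 10.9 in the *SFL1* libraries and 69.6, 74.2, 60.1, and 52.1 in the *ROF1* libraries (log2 fold-change -2.12, SE 0.15, adjusted p = 2.1e-09). Reads of *AQY1* and *AQY2* may be shared where their sequences are alike. The aquaglyceroporin *AQY3* moved the other way (log2 fold-change 0.49, SE 0.10, adjusted p = 0.0015), a call lost without *ROF1* replicate 2 (adjusted p = 0.012), and the fourth member of the list was not called.

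*DDR2* (YOL052C-A, chromosome XV, 231570 to 231755) and *HSP12* are induced by many stresses through the stress response element, AGGGG, which Msn2 and Msn4 bind. Their windows of 300 bases (chrXV:231806-232105, minus strand, and chrVI:106906-107205, plus strand, both from RefSeq R64) are shown with the element in capitals, which reads CCCCT where it lies on the other strand:
DDR2: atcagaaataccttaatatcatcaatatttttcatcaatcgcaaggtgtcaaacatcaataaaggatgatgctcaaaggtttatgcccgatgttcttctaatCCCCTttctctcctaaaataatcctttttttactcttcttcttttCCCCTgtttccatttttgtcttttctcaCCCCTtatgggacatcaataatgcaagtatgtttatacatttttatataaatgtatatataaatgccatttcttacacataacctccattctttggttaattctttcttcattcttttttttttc
HSP12: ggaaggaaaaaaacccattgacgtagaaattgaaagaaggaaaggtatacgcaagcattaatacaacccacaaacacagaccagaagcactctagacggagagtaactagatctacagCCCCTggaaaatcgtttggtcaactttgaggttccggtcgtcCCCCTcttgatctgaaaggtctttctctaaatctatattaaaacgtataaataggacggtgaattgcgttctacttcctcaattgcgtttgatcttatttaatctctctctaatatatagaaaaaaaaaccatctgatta
The window of *DDR2* held 3 elements and that of *HSP12* held 2. At least 1 element lay in 16 of the 34 windows of the ORFs defined above (47.1%), against 23.2% of all windows. These ORFs were chosen from their values, so the share is a description.

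*DDR2* had 331, 311, 359, and 350 normalized CPM in the *SFL1* libraries and 1080, 1120, 965, and 670 in the *ROF1* libraries, a difference of -1.5 (SE 0.17, adjusted p = 2.2e-06). It averaged 730 ± 192 in the *HEK2* strain and 771 ± 132 in the *SAN1* strain (SD, n = 4 each), and its difference of differences was -1.43 (adjusted p = 0.0012). *HSP12*, a small membrane-protecting protein, had 3160, 3310, 3510, and 3750 in the *SFL1* libraries and 6890, 7980, 6370, and 5450 in the *ROF1* libraries (log2 fold-change -0.96, SE 0.13, adjusted p = 2.2e-05), with a difference of differences of -0.88 (adjusted p = 0.0096). *DDR48* (YMR173W, chromosome XIII, 608689 to 609981), a DNA damage and heat inducible gene, had 5.36, 5.68, 6.67, and 6.35 in the *SFL1* libraries and 33.7, 37.7, 28.5, and 28.5 in the *ROF1* libraries, a difference of -2.41 (SE 0.14, adjusted p = 2.0e-10). In the second pair *DDR48* also differed, by -0.97 (adjusted p = 6.2e-05), so its difference of differences was smaller than its fall, at -1.44 (adjusted p = 1.3e-04). *HSP12* did not overlap between the *SFL1* and *ROF1* strains, and *DDR2* and *DDR48* were chosen among ORFs without overlap. Of 33 heat shock proteins and chaperones, 2 fell and 2 rose, a called share of 12.1% against 15.3% of all ORFs, with a median of 0.02. Beside *HSP12*, *HSP26* fell by 0.59 (SE 0.12, adjusted p = 9.0e-04). The 2 that rose, *SSA2* (0.44) and *SSB1* (0.28), lost their calls in 7 and 5 of the 8 fits that left out 1 library, among them those without *ROF1* replicate 2 or 3 and *SFL1* replicate 1, 2, or 3.

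*YGP1*, a secreted glycoprotein gene of starved cells, had 3680, 4000, 4090, and 4000 normalized CPM in the *SFL1* libraries and 7450, 8000, 7250, and 6260 in the *ROF1* libraries (log2 fold-change -0.88, SE 0.10, adjusted p = 1.7e-06), with a difference of differences of -0.90 (adjusted p = 3.8e-04). *PNS1* (YOR161C, chromosome XV, 636939 to 638558), a membrane protein gene, had 48.9, 49.2, 47.5, and 57.6 in the *SFL1* libraries and 158, 171, 133, and 111 in the *ROF1* libraries, a difference of -1.5 (SE 0.14, adjusted p = 1.6e-07), and -1.68 (adjusted p = 1.2e-05) for the difference of differences. *SUC2* differed by 0.19 (adjusted p = 0.10) in the second pair, which gave -0.89 (adjusted p = 1.1e-04). The wall mannoprotein *CWP2* gave -0.64 (adjusted p = 0.0020), the yapsin protease *YPS1* -0.48 (adjusted p = 0.0096), the protein kinase A subunit *TPK2*, whose kinase releases Sfl1 from its targets, -0.63 (adjusted p = 0.0061), and the succinate dehydrogenase subunit *SDH4* -0.57 (adjusted p = 0.0050).

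Set against the mean of the *HEK2*, *SAN1*, and *TOS8* strains, 854 ORFs (14.8%) were called for the *SFL1* strain, 7.17% higher and 7.62% lower, and 369 (6.39%) for the *ROF1* strain, 2.69% higher and 3.71% lower. Since both comparisons use the same 12 libraries, their values are only set side by side. For *AQY1*, the *SFL1* strain differed by -2.35 (adjusted p = 7.5e-11) and the *ROF1* strain by 0.09 (adjusted p = 0.62). For *DDR2* the values were -1.29 (adjusted p = 3.0e-06) for *SFL1* and 0.21 (adjusted p = 0.28) for *ROF1*, and for *PNS1* -1.55 (adjusted p = 1.6e-08) for *SFL1* and -0.05 (adjusted p = 0.81) for *ROF1*. For other genes named below, only the *ROF1* strain was called. *GIT1* had 1.05 (adjusted p = 1.5e-06) for *ROF1* and 0.12 (adjusted p = 0.42) for *SFL1*. *ENB1* had -0.78 (adjusted p = 1.9e-04) for *ROF1* and 0.08 (adjusted p = 0.57) for *SFL1*. *SPS4* (0.86 for *ROF1*, 0.16 for *SFL1*) and *SHM2* (-0.53 for *ROF1*, 0.13 for *SFL1*) were further cases. *NFG1* averaged 19.7 ± 1.98 normalized CPM in the *SFL1* strain and 126 ± 18 in the *ROF1* strain, with 20 ± 4.96 in *HEK2*, 83.0 ± 10.6 in *SAN1*, and 77.7 ± 17.8 in *TOS8* (SD, n = 4 each). *BAR1* averaged 12.3 ± 0.818 in the *SFL1* strain and 27.2 ± 4.06 in the *ROF1* strain, with 15 ± 1.68 in *HEK2*, 26.8 ± 4.42 in *SAN1*, and 11.6 ± 2.18 in *TOS8*. The *SFL1* mean of *NFG1* was near that of *HEK2*, and the *BAR1* means of *SFL1* and *ROF1* were near those of *TOS8* and *SAN1*. *DAN1* averaged 152 ± 21.2 in the *SFL1* strain and 33.3 ± 23.9 in the *ROF1* strain, with 92.9 ± 14.0 in *HEK2*, 26.2 ± 16.9 in *SAN1*, and 12.9 ± 5.24 in *TOS8*. Leaving out any *SFL1* library gave 411 to 550 calls in place of 854, and leaving out *ROF1* replicate 1, 2, or 3 gave 119 to 175 in place of 369.

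Of 8 *TIR* and *DAN* mannoproteins, which replace the *CWP* mannoproteins of the wall when oxygen is scarce, 5 rose, all 8 had a positive log2 fold-change, and the median was 0.97. *DAN1* (YJR150C, chromosome X, 708811 to 709707), the member with the largest rise, is a gene under the control of Upc2. The letters sought were TCGTATA, a motif of Upc2, and no other motif of this factor was sought. Whether Upc2 acts on *DAN1* through these letters was not tested. Its window of 300 bases (chrX:709758-710057, minus strand, RefSeq R64) is shown with the single match in capitals, on the opposite strand as TATACGA:
DAN1: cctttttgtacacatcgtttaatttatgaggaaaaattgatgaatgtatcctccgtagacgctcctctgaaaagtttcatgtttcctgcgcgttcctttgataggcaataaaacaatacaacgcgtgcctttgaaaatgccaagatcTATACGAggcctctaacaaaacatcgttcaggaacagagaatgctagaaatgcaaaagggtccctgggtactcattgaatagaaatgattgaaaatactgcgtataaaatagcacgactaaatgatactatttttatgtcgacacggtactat
On either strand, TCGTATA lay in the windows of 4 of the 8 genes, 3 of the 5 that rose and 1 of the 3 that were not called, against 4.5% of all windows.

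*DAN1* had 140, 130, 161, and 177 normalized CPM in the *SFL1* libraries and 27.9, 11.4, 26.6, and 67.3 in the *ROF1* libraries, a rise of 2.29 (SE 0.41, adjusted p = 4.0e-04). The *SFL1* libraries were close together, whereas the *ROF1* libraries spread widely, with replicate 2 lowest and replicate 4 highest. The same held for *DAN4* (YJR151C, chromosome X, 712255 to 715740), with 62.2, 55.8, 69.9, and 74.1 in the *SFL1* libraries and 21.2, 11.2, 16.9, and 30.5 in the *ROF1* libraries (log2 fold-change 1.81, SE 0.22, adjusted p = 6.0e-06). *TIR4* (YOR009W, chromosome XV, 344335 to 345798) had 129, 143, 142, and 160 in the *SFL1* libraries and 51.2, 40.5, 57.1, and 89.3 in the *ROF1* libraries (log2 fold-change 1.30, SE 0.19, adjusted p = 5.9e-05). *TIR2* (YOR010C, chromosome XV, 346195 to 346950) had 174, 177, 196, and 184 in the *SFL1* libraries and 82.0, 46.3, 69.6, and 111 in the *ROF1* libraries (log2 fold-change 1.27, SE 0.21, adjusted p = 2.0e-04). All of these were chosen among ORFs without overlap. *PAU24* was the fifth member called (0.67), a call lost without *ROF1* replicate 1 or 3 or *SFL1* replicate 2 or 4. *TIR1*, *TIR3*, and *PAU23* were not called. In the second pair *DAN1* differed by 1.80 (adjusted p = 0.0041), *DAN4* by 1.87 (adjusted p = 1.1e-05), *TIR4* by 1 (adjusted p = 0.0011), and *TIR2* by 0.95 (adjusted p = 0.0036). *UPC2* itself had 25.1, 21.4, 21.0, and 23.0 normalized CPM in the *SFL1* libraries and 16.1, 12.4, 13.9, and 16.6 in the *ROF1* libraries (log2 fold-change 0.64, SE 0.12, adjusted p = 5.4e-04).

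*HPF1* (YOL155C, chromosome XV, 28703 to 31606) and *CSS1* (YIL169C, chromosome IX, 23119 to 26106), related genes for large glucan-associated mannoproteins whose reads may be shared, were abundant and rose together. *HPF1* had 792, 844, 919, and 984 normalized CPM in the *SFL1* libraries and 345, 217, 289, and 562 in the *ROF1* libraries (log2 fold-change 1.33, SE 0.22, adjusted p = 1.4e-04). *CSS1* had 796, 1010, 968, and 969 in the *SFL1* libraries and 331, 231, 275, and 511 in the *ROF1* libraries (log2 fold-change 1.48, SE 0.19, adjusted p = 1.2e-05). *PRY3* (YJL078C, chromosome X, 291336 to 293981), a wall protein of daughter cells, had 101, 104, 122, and 115 in the *SFL1* libraries and 41.0, 39.2, 43.1, and 52.1 in the *ROF1* libraries (log2 fold-change 1.35, SE 0.11, adjusted p = 2.9e-08). Of the seripauperins, short relatives of the *TIR* proteins, 8 of 24 were tested, 3 rose and none fell (median 0.41). Without *ROF1* replicate 1 or 3 or *SFL1* replicate 2 or 4, 2 were called. *PAU24* above carries a seripauperin name, so this list and that of the *TIR* and *DAN* genes may share members. The largest rises were in *PAU12*, with 1.96, 2.51, 2.29, and 1.83 in the *SFL1* libraries and 0.997, 1.07, 0.955, and 1.36 in the *ROF1* libraries (log2 fold-change 1, SE 0.19, adjusted p = 6.3e-04), and *PAU5* (0.77), and these near-identical genes share reads. Of 10 genes for the separation of mother and daughter cells 5 rose and 1 fell (median 0.29). *DSE4*, a daughter-specific glucanase, had 49.9, 53.2, 64, and 68.1 normalized CPM in the *SFL1* libraries and 28.5, 25.0, 32.3, and 32.9 in the *ROF1* libraries (log2 fold-change 1.01, SE 0.12, adjusted p = 5.5e-06), and *EGT2* rose by 0.53. *AMN1*, which represses the separation genes, fell by 0.53 (SE 0.09, adjusted p = 3.2e-04). Without *ROF1* replicate 2 the count of called separation genes was 3 in place of 6, and *EGT2* was no longer called (adjusted p = 0.011).

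In other families of wall genes, the members called were lower. Of 9 other mannoproteins 4 fell (median -0.31), led by *YGP1* above and by *CWP2*, with 3200, 3340, 3770, and 3230 normalized CPM in the *SFL1* libraries and 5480, 5250, 5590, and 5310 in the *ROF1* libraries (log2 fold-change -0.68, SE 0.08, adjusted p = 3.3e-06). Of 18 enzymes of glucan and chitin, 5 fell and none rose (median -0.16). *SCW10*, a glucanase family member that overlaps another feature of its strand, had 703, 735, 761, and 717 in the *SFL1* libraries and 1330, 1240, 1300, and 1370 in the *ROF1* libraries (log2 fold-change -0.84, SE 0.09, adjusted p = 9.5e-07). *GAS5*, a glucan elongating enzyme, fell by 0.46 (SE 0.07, adjusted p = 1.2e-04). Of 5 *PIR* wall proteins, *CIS3* fell, with 602, 647, 705, and 651 in the *SFL1* libraries and 815, 893, 1020, and 1080 in the *ROF1* libraries (log2 fold-change -0.55, SE 0.08, adjusted p = 8.5e-05). *PIR3* was also called lower (log2 fold-change -0.90, SE 0.23, adjusted p = 0.0054), but only *ROF1* replicate 4 could be left out without losing that call (adjusted p between 0.010 and 0.036 without each of the others). Of 6 yapsins, *YPS1* fell by 0.51 (SE 0.07, adjusted p = 2.6e-05), a called share of 16.7% against 15.3% of all ORFs.

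Of 12 genes listed for hypoxia, regulators among them, 6 rose, none fell, and 6 were not called (median 0.36). Those that rose were *AAC3*, *ANB1*, *HEM13*, *AUS1*, *PDR11*, and the regulator *HAP1*, whose rise is not itself a sign of low oxygen. *AAC3* (YBR085W, chromosome II, 415983 to 416906), the ADP/ATP carrier of anaerobic cells, had 19.9, 22.4, 20.6, and 23.2 normalized CPM in the *SFL1* libraries and 8.52, 6.57, 7.80, and 10.6 in the *ROF1* libraries (log2 fold-change 1.42, SE 0.17, adjusted p = 6.0e-06). *ANB1* (YJR047C, chromosome X, 524908 to 525381), the anaerobic form of the translation factor eIF5A, had 100, 97.2, 87.9, and 84.4 in the *SFL1* libraries and 39.4, 25.4, 29.8, and 54.0 in the *ROF1* libraries (log2 fold-change 1.36, SE 0.23, adjusted p = 2.3e-04). The repressor of such genes, *ROX1*, was not called (0.01). *HES1* (YOR237W, chromosome XV, 781994 to 783298), an oxysterol-binding protein gene, had 19.8, 19.1, 20.1, and 26.1 in the *SFL1* libraries and 9.51, 7.52, 8.19, and 11.4 in the *ROF1* libraries (log2 fold-change 1.27, SE 0.15, adjusted p = 5.2e-06), and unlike *AAC3* and *ANB1* it had a difference of differences that was called, 1.06 (adjusted p = 0.0096). Sterol synthesis requires oxygen, and 9 of 25 of its genes rose with no fall (median 0.22). *UPC2* led these, followed by *ERG13*, the HMG-CoA synthase, with 591, 532, 545, and 505 in the *SFL1* libraries and 395, 366, 433, and 433 in the *ROF1* libraries (log2 fold-change 0.42, SE 0.08, adjusted p = 5.1e-04). Without *ROF1* replicate 2 or *SFL1* replicate 1, 6 of the sterol genes were called.

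Genes of amino acid biosynthesis were often higher in the *SFL1* strain. Of 10 arginine genes 7 rose and none fell (median 0.43), and of 60 other amino acid genes 28 rose and 3 fell (median 0.26), against 7.57% higher and 7.69% lower of all ORFs. Many such genes are activated by Gcn4, which binds the letters TGACTC. *HIS4*, a histidine synthesis gene with a well-studied Gcn4 response, is shown as the window of 300 bases before its start (chrIII:68384-68683, minus strand, RefSeq R64), where 3 matches stand in capitals:
HIS4: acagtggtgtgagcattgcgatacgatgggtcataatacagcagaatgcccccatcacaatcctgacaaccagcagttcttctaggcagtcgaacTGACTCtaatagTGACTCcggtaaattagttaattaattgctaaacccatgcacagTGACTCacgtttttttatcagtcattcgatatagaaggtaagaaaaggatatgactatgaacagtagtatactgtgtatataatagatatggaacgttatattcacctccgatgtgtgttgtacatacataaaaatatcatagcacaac
On either strand, TGACTC lay in the windows of all 10 arginine genes and of 36 of the 60 other amino acid genes, against 8.37% of all windows. Among the 60, it lay in 22 of the 28 that rose, 1 of the 3 that fell, and 13 of the 29 that were not called. *GCN4* itself was not called (0.07), and its level is set largely by translation, which was not measured here.

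*HIS4* had 518, 523, 503, and 491 normalized CPM in the *SFL1* libraries and 297, 268, 294, and 362 in the *ROF1* libraries (log2 fold-change 0.74, SE 0.11, adjusted p = 5.2e-05). *ARO4*, the first enzyme of aromatic amino acid synthesis, had 696, 684, 676, and 642 in the *SFL1* libraries and 402, 352, 399, and 493 in the *ROF1* libraries (log2 fold-change 0.72, SE 0.10, adjusted p = 2.2e-05). *ARG7*, an enzyme of the ornithine cycle in mitochondria, had 95.9, 86.2, 85.5, and 80.4 in the *SFL1* libraries and 44.6, 45.3, 53.5, and 52.5 in the *ROF1* libraries (log2 fold-change 0.83, SE 0.09, adjusted p = 7.6e-07), and *ARG4*, argininosuccinate lyase, rose by 0.53 (SE 0.12, adjusted p = 0.0023). The strains did not overlap for any of these 4 genes. The falls included *BAT2*, the cytosolic branched-chain transaminase, with 364, 367, 365, and 328 in the *SFL1* libraries and 512, 503, 552, and 546 in the *ROF1* libraries (log2 fold-change -0.57, SE 0.06, adjusted p = 2.2e-06), and *ARO9*, an aromatic transaminase of amino acid breakdown (log2 fold-change -0.44, SE 0.09, adjusted p = 7.9e-04). In the second pair *HIS4* differed by 0.83 (adjusted p = 2.9e-05), *ARO4* by 0.47 (adjusted p = 0.0018), and *ARG7* by 0.45 (adjusted p = 8.9e-04), and none of these differences of differences was called.

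Of 26 genes of purine, one-carbon, and pyrimidine synthesis 11 rose and 2 fell (median 0.36). *SHM2*, the cytosolic serine hydroxymethyltransferase, had 1410, 1340, 1270, and 1170 normalized CPM in the *SFL1* libraries and 723, 693, 862, and 992 in the *ROF1* libraries (log2 fold-change 0.67, SE 0.12, adjusted p = 2.9e-04). *IMD3*, an IMP dehydrogenase of GTP synthesis, had 343, 334, 342, and 343 in the *SFL1* libraries and 228, 207, 241, and 280 in the *ROF1* libraries (log2 fold-change 0.51, SE 0.08, adjusted p = 1.1e-04). The pyrimidine genes *URA3* (log2 fold-change -0.40, SE 0.08, adjusted p = 5.9e-04) and *URA10* (-0.36) fell, and *URA10* lost its call without *ROF1* replicate 1 or 2 or *SFL1* replicate 1. Without *ROF1* replicate 2, 8 genes of this list were called in place of 13. Of 30 genes of sulfate assimilation and methionine 10 rose and none fell (median 0.22). *SUL1*, a sulfate permease, had 43.0, 41.4, 42.4, and 35.4 in the *SFL1* libraries and 25.9, 22.5, 23.4, and 23.5 in the *ROF1* libraries (log2 fold-change 0.77, SE 0.08, adjusted p = 5.8e-07), and its difference of differences was called, 0.59 (adjusted p = 0.0045). *SAM1*, an S-adenosylmethionine synthetase, rose by 0.50 (SE 0.10, adjusted p = 0.0011).

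Of 138 cytosolic ribosomal protein genes 60 rose and none fell, 135 had a positive log2 fold-change, and the median was 0.25. *RPS21A* had 381, 363, 390, and 390 normalized CPM in the *SFL1* libraries and 272, 222, 223, and 316 in the *ROF1* libraries (log2 fold-change 0.56, SE 0.10, adjusted p = 2.1e-04). *RPL30* had 852, 809, 877, and 805 in the *SFL1* libraries and 571, 502, 554, and 683 in the *ROF1* libraries (log2 fold-change 0.53, SE 0.08, adjusted p = 8.4e-05), and neither gene overlapped between strains. In the *ROF1* strain both were highest in replicate 4. The count of 60 was 30 without *ROF1* replicate 2 and 37 without *ROF1* replicate 3, while the number with a positive log2 fold-change was also 135 with RLE size factors, with TMM over all features, and with DESeq2. Most of these genes have near-identical copies whose reads cannot be told apart with certainty. The factors that assemble ribosomes did not show the same share. Of 89 such genes 4 rose and none fell (4.49% called, median 0.10), though 68 had a positive log2 fold-change. With no filter on low counts or with only the libraries compared 2 of the 89 were called, and none was without *ROF1* replicate 2, *SFL1* replicate 1, or *SFL1* replicate 2.

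**Figure D5:**
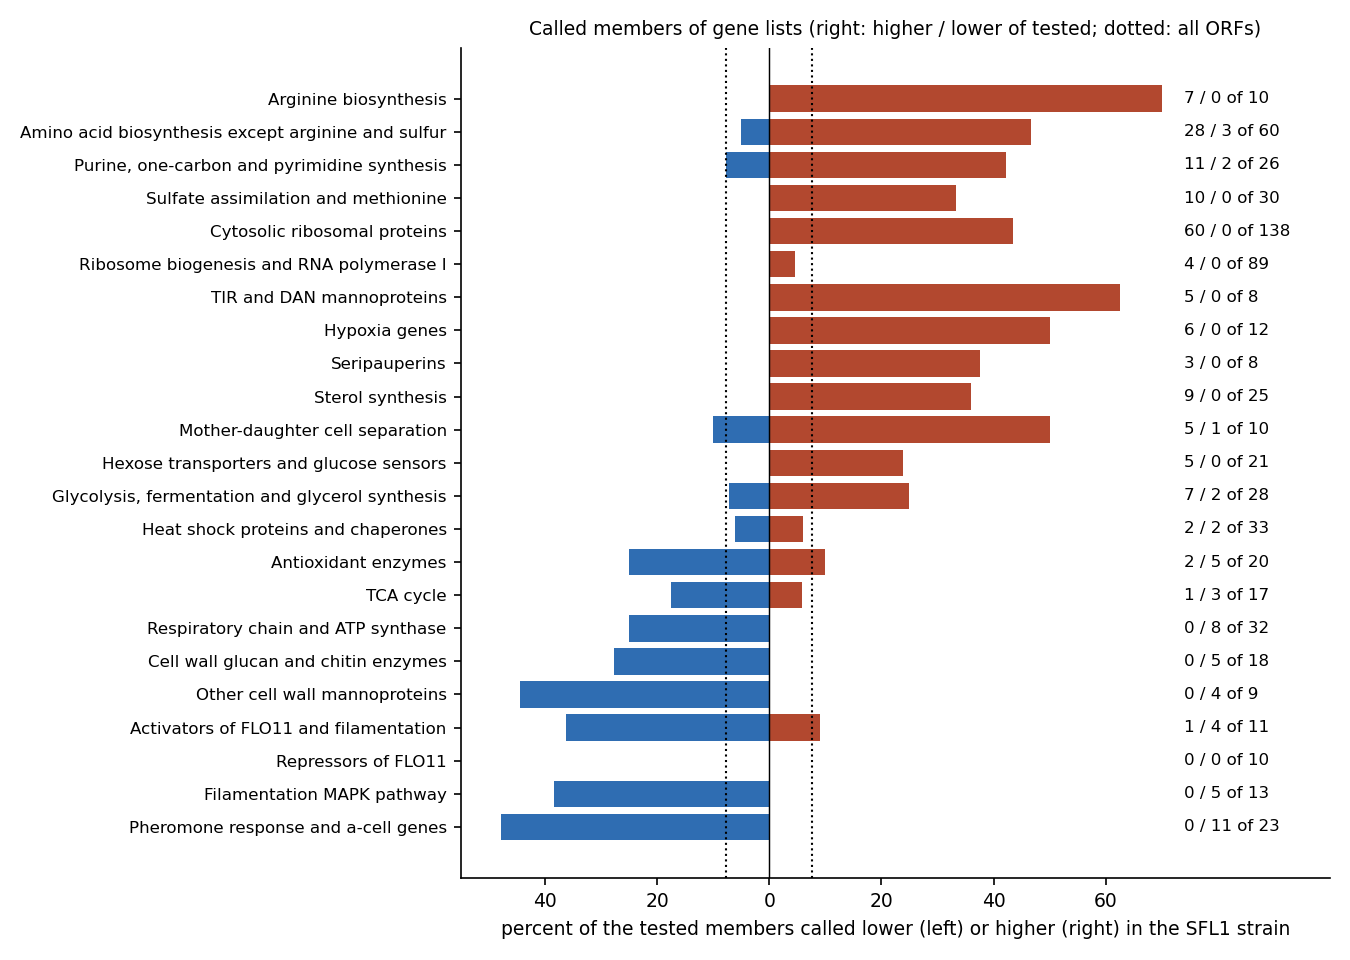
Percent of the tested members of 23 gene lists that were called higher (red, right) or lower (blue, left) in the *SFL1* strain than in the *ROF1* strain, with the counts at the right edge. Dotted lines mark the percent of all ORFs, 7.57% higher and 7.69% lower. The lists were picked for display from those described here. The bar of the arginine genes stands for 7 of 10 higher, and that of the pheromone genes for 11 of 23 lower.

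Genes of sugar uptake and use were called higher more often than lower. Of 21 tested hexose transporters and glucose sensors 5 rose and none fell (median 0.14). *HXT13* had 192, 204, 206, and 199 normalized CPM in the *SFL1* libraries and 141, 121, 110, and 104 in the *ROF1* libraries (log2 fold-change 0.75, SE 0.08, adjusted p = 7.6e-07), and its near-identical relative *HXT17*, with which it may share reads, rose without overlap (log2 fold-change 0.78, SE 0.09, adjusted p = 1.6e-06). Of 28 genes of glycolysis, fermentation, and glycerol synthesis 7 rose and 2 fell (median 0.13). *HXK1*, a hexokinase that overlaps another feature of its strand, had 4510, 4510, 4800, and 5550 in the *SFL1* libraries and 3000, 2580, 2810, and 3730 in the *ROF1* libraries (log2 fold-change 0.68, SE 0.13, adjusted p = 6.6e-04). *ENO2*, the enolase of glucose-grown cells, had 4530, 4510, 4870, and 4860 in the *SFL1* libraries and 2700, 2210, 2530, and 3970 in the *ROF1* libraries (log2 fold-change 0.72, SE 0.16, adjusted p = 0.0018), a call lost without *ROF1* replicate 2 (adjusted p = 0.011). The falls, in its paralog *ENO1* (-0.35) and in *PFK2* (-0.24), were not called with the replicate number as a block (adjusted p = 0.016 and 0.010) and lost their calls in 7 of the 8 fits that left out 1 library. Without *ROF1* replicate 2, 5 of the 28 genes were called. *PGM2*, a phosphoglucomutase that feeds glycogen and trehalose synthesis, had 336, 339, 355, and 409 in the *SFL1* libraries and 198, 200, 205, and 249 in the *ROF1* libraries (log2 fold-change 0.76, SE 0.09, adjusted p = 7.8e-06), and of 17 trehalose and glycogen genes 3 rose (median 0.21). With only the libraries compared, 7 of the 17 were called, 6 higher and 1 lower, and with DESeq2 or the likelihood ratio test 5 were, 4 higher and 1 lower. In the main fit the called share of the trehalose and glycogen genes was 17.6%, against 15.3% of all ORFs.

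Respiratory genes were on the lower side. Of 32 genes of the respiratory chain and ATP synthase 8 fell and none rose, 31 had a negative log2 fold-change, and the median was -0.24. *COX5A*, the aerobic form of a cytochrome oxidase subunit, had 1310, 1440, 1510, and 1410 normalized CPM in the *SFL1* libraries and 2070, 2310, 2060, and 1680 in the *ROF1* libraries (log2 fold-change -0.52, SE 0.09, adjusted p = 2.4e-04). *QCR6*, a subunit of the cytochrome bc1 complex, had 691, 685, 697, and 688 in the *SFL1* libraries and 943, 1030, 975, and 889 in the *ROF1* libraries (log2 fold-change -0.47, SE 0.06, adjusted p = 5.2e-06). Neither overlapped between the strains. The count of 8 was 4 without *ROF1* replicate 2, 13 without *ROF1* replicate 4, 5 without *ROF1* replicate 1 or 3 or *SFL1* replicate 1, 2, or 4, and 16 with DESeq2. Of 17 genes of the TCA cycle 3 fell and 1 rose (median -0.16). *SDH4*, a membrane anchor of succinate dehydrogenase, had 2110, 2180, 2490, and 2270 in the *SFL1* libraries and 3680, 3780, 3690, and 3400 in the *ROF1* libraries (log2 fold-change -0.68, SE 0.08, adjusted p = 2.2e-06), and *SDH3* fell by 0.46 (SE 0.10, adjusted p = 0.0013). The rise, in the minor citrate synthase gene *CIT3* (0.49, adjusted p = 0.0093), was lost with the block (adjusted p = 0.011) and in 7 of the 8 fits that left out 1 library. Without *ROF1* replicate 1 or 3 or *SFL1* replicate 1 or 2, 2 of the 17 genes were called.

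Single genes of other pathways completed the largest changes. *FDH1* (YOR388C, chromosome XV, 1071793 to 1072923), a formate dehydrogenase near a chromosome end, had 15.1, 15.7, 18.7, and 17.5 normalized CPM in the *SFL1* libraries and 3.17, 4.51, 4.69, and 4.89 in the *ROF1* libraries, a rise of 1.96 (SE 0.20, adjusted p = 7.6e-07) with a called difference of differences of 2.47 (adjusted p = 2.5e-05). *OPT1* (YJL212C, chromosome X, 33850 to 36249), a transporter of glutathione and other small peptides, had 87.4, 76.7, 71.9, and 76.0 in the *SFL1* libraries and 29.6, 25.3, 32.9, and 43.2 in the *ROF1* libraries (log2 fold-change 1.28, SE 0.15, adjusted p = 4.7e-06). *INO1* (YJL153C, chromosome X, 134332 to 135933), the first enzyme of inositol synthesis, had 174, 188, 204, and 159 in the *SFL1* libraries and 1070, 1390, 1010, and 391 in the *ROF1* libraries, a difference of -2.42 (SE 0.42, adjusted p = 2.9e-04). *ROF1* replicate 4 stood well below the other *ROF1* replicates here, though still above every *SFL1* library. *PHO5* (YBR093C, chromosome II, 429548 to 430951), the acid phosphatase induced by phosphate starvation, had 50.9, 54.0, 54.8, and 52.5 in the *SFL1* libraries and 144, 174, 150, and 141 in the *ROF1* libraries, a difference of -1.53 (SE 0.24, adjusted p = 8.5e-05). Of 18 phosphate starvation genes 3 fell, the glycerophosphoinositol permease gene *GIT1* among them with -0.93 (SE 0.13, adjusted p = 2.4e-05), and 1 rose, the constitutive phosphatase *PHO3*, with 56.9, 57.6, 58.7, and 59.9 in the *SFL1* libraries and 40.8, 38.5, 38.6, and 45.3 in the *ROF1* libraries (log2 fold-change 0.52, SE 0.07, adjusted p = 1.9e-05). With only the libraries compared, 7 of the 18 were called, 1 of them higher. *PHO3* lies next to *PHO5* and is similar in sequence, so reads may be shared.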

How the data were processed

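The values analysed were whole-number counts of reads per annotated feature, deposited by the authors for 20 libraries of 5 strains. Per the labels and the methods of the study, the authors made stranded mRNA libraries, aligned the reads with Bowtie2 2.1.0 to a reference extended from genome build R64, and counted them by strand with featureCounts 1.4.0 with no mapping-quality filter, so reads of near-identical genes may be misassigned. Total counts per library limit the precision and are given with the results.

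ORFs were kept from a median of 1 CPM upwards, TMM factors were computed within the ORFs, and 1 quasi-likelihood model with a mean per strain was fitted to all 20 libraries (edgeR 4.0.16, limma 3.58.1, R 4.3.3). Benjamini-Hochberg adjustment ran over all ORFs tested, and calls were made below 0.01. Normalized CPM uses TMM library sizes. The difference of differences is the contrast of *SFL1* minus *ROF1* less *HEK2* minus *SAN1*. The statistics were tested on simulated data.

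Genes named are *FLO11*, *SFL1*, *ROF1*, *MIT1*, the annotated neighbours of the plasmid genes, the 12 largest called rises and falls without overlap, and for each of 47 lists the 2 called members with the largest rise and the 2 with the largest fall, or the member with the largest absolute change where none was called. Members enumerated beyond this rule were chosen after their values were seen. The members and lists were chosen with earlier results of these data known. Windows are RefSeq R64 sequence, and motifs were sought on both strands. Library names give replicates a shared number, and deviations of same-numbered *SFL1* and *ROF1* libraries from their strain means correlated at 0.434, 0.203, 0.159, and 0.367, so a fit with that number as a block was among the alternatives. The others were RLE size factors, TMM over all features, no filter on low counts, another count minimum, the edgeR likelihood ratio test, DESeq2 1.42.0, only the libraries compared, a call threshold of 0.05, a required 1.5-fold difference, and leaving out each library.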

Additional observations from a re-analysis of the deposited data

Results flagged for a closer look

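In the *SFL1* strain, *HES1* had 26.1 normalized CPM in replicate 4, against 19.1 to 20.1 in the other replicates. In the *ROF1* strain, *RUP1*, a neighbour of *SFL1*, had 63.5 normalized CPM in replicate 4, against 72.4 to 73.0 in the other replicates. Each stood far from its group by Dixon's criterion. Among the 66 groups tested, chance gives about 1 in 20.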

How the results depend on the processing

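With a false discovery rate of 0.05, the counts of called ORFs were 1603 for *SFL1* against *ROF1*, 1348 for *HEK2* against *SAN1*, 310 for the difference of differences, and 1602 and 952 for the *SFL1* and the *ROF1* strain against the other strains. With a fold-change above 1.5 as well, they were 182, 136, 45, 115, and 27 in the same order of comparisons. With only the libraries compared, 153 ORFs were called for *HEK2* against *SAN1*, 38 for the difference of differences, and 242 for *ROF1* against the other strains. The edgeR likelihood ratio test called 172 and DESeq2 197 for the difference of differences, and 560 and 583 for *ROF1* against the other strains. Leaving out 1 library gave 519 to 1010 calls for *SFL1* against *ROF1*, 400 to 647 for *HEK2* against *SAN1*, 35 to 140 for the difference of differences, 411 to 951 for *SFL1* and 119 to 517 for *ROF1* against the other strains. With the replicate number as a block, 947 ORFs were called for *SFL1* against *ROF1*, 808 for *HEK2* against *SAN1*, 100 for the difference of differences, and 961 and 491 against the other strains. Among the genes named, the block ended the calls of *MLS1* (adjusted p = 0.011), *CIT3*, *ENO1*, and *PFK2*, added *MGA1*, and changed no other call. No named gene changed direction under any alternative. Of 113 named genes called, 84 stayed called without each of the 8 libraries of the pair, and 23 lost the call without *ROF1* replicate 2. The 113 and the 84 include *FLO11*, which chose the pair, and the plasmid genes *SFL1* and *ROF1*. The share of higher calls was 437 of 881, against 570 of 1084 with DESeq2.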

Other observations

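Antioxidant genes were called in both directions between the *SFL1* and *ROF1* strains, 2 higher and 5 lower of 20 (median log2 fold-change -0.11). *GPX1*, a glutathione peroxidase, had 50.4, 51.2, 53.2, and 52.4 normalized CPM in the *SFL1* libraries and 84.6, 104, 96.9, and 86.2 in the *ROF1* libraries (log2 fold-change -0.85, SE 0.11, adjusted p = 1.8e-05), and the thioredoxin peroxidase *AHP1* had 179, 182, 180, and 201 in the *SFL1* libraries and 137, 145, 130, and 135 in the *ROF1* libraries (log2 fold-change 0.44, SE 0.09, adjusted p = 0.0015). The mitochondrial superoxide dismutase *SOD2* was called lower (log2 fold-change -0.56, SE 0.13, adjusted p = 0.0028), but not without *ROF1* replicate 2 or *SFL1* replicate 1. Without *ROF1* replicate 2 or *SFL1* replicate 1, 3 genes of this list were called, and without *ROF1* replicate 1 or *SFL1* replicate 2, 4.

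Nitrogen and metal genes were also mixed. Of 21 genes of nitrogen catabolism 4 rose and 3 fell. The proline permease *PUT4* had 741, 756, 817, and 730 normalized CPM in the *SFL1* libraries and 1080, 1170, 1210, and 1000 in the *ROF1* libraries (log2 fold-change -0.55, SE 0.10, adjusted p = 6.3e-04), whereas *DAL80*, a repressor of such genes, had 13.3, 12.8, 13.1, and 11.9 in the *SFL1* libraries and 7.52, 8.81, 9.23, and 8.82 in the *ROF1* libraries (log2 fold-change 0.57, SE 0.11, adjusted p = 7.5e-04). Of 14 amino acid permeases *CAN1* was called higher (log2 fold-change 0.33, SE 0.08, adjusted p = 0.0030), and not without *ROF1* replicate 2 or *SFL1* replicate 1 or 2 or with only the libraries compared. With the replicate block 2 permeases were called higher. Of 26 iron uptake genes 4 rose and 1 fell, with 2 or 3 called in every fit that left out 1 library other than *ROF1* replicate 4. The siderophore transporter *ENB1* had 20.2, 16.9, 17.9, and 18.1 in the *SFL1* libraries and 9.79, 9.55, 9.55, and 12.1 in the *ROF1* libraries (log2 fold-change 0.86, SE 0.13, adjusted p = 5.6e-05). Of 10 zinc-responsive genes 2 rose, led by *IZH2* (log2 fold-change 0.49, SE 0.10, adjusted p = 0.0013), and with the replicate block 4 rose.

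Among 14 genes of the Ras and protein kinase A pathway, *TPK2* (log2 fold-change -0.38, SE 0.09, adjusted p = 0.0026) and the phosphodiesterase *PDE1* (log2 fold-change -0.37, SE 0.09, adjusted p = 0.0035) were called lower, and neither was called without *ROF1* replicate 2 or *SFL1* replicate 1, nor *PDE1* without *SFL1* replicate 4. Of 12 meiosis and sporulation genes *SPS4* fell (log2 fold-change -0.69, SE 0.12, adjusted p = 2.9e-04), and *SPS1* was called lower (log2 fold-change -0.52, SE 0.11, adjusted p = 0.0011) except without *ROF1* replicate 2. Of 12 genes of gluconeogenesis and the glyoxylate cycle *MLS1* and *ACS1* were called lower, and without *ROF1* replicate 1, 2, or 3 or *SFL1* replicate 1, 2, or 4 none was, against 1 without *SFL1* replicate 3 or with the replicate block and 5 without *ROF1* replicate 4. Of 18 genes of fatty acid oxidation *TES1* was called lower (log2 fold-change -0.44, SE 0.09, adjusted p = 0.0016) except without *ROF1* replicate 2. Of 34 proteasome genes 14.7% were called, against 15.3% of all ORFs, 4 of them lower and 1 higher, *PUP1* (log2 fold-change 0.32, SE 0.06, adjusted p = 9.7e-04), and leaving out 1 library gave 1 to 8 calls, the lowest without *ROF1* replicate 2 and the highest without *ROF1* replicate 4. Of 3 acetate and ammonium exporters *ATO2* was called lower, and of the 8 libraries only *ROF1* replicate 4 could be left out without losing that call. The called shares were 14.3% for the Ras and protein kinase A pathway, 16.7% for meiosis, and 16.7% for gluconeogenesis. They were 5.56% for fatty acid oxidation and 33.3% for the exporters, against 15.3% of all ORFs.

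Of 9 cyclins *CLN1* was called, and with the replicate block 2 were, 1 of them higher. Of 21 DNA replication genes *RNR2* was called higher (log2 fold-change 0.34, SE 0.06, adjusted p = 6.3e-04), with 3 called by DESeq2, by the likelihood ratio test, or without *ROF1* replicate 4, and 2 without *SFL1* replicate 2. The called shares were 11.1% for the cyclins and 4.76% for the DNA replication genes, both below the share of all ORFs. None of 11 histone genes was called by edgeR, where 2 had an unadjusted p under 0.05, and DESeq2 called 1. None of 4 factors with a heat shock factor domain other than Sfl1 was called by edgeR or DESeq2, with 1 at an unadjusted p under 0.05, apart from *MGA1* under the alternatives given above. Of 321 tested ORFs within 30 kb of a chromosome end 46 were higher and 21 lower (20.9% called, against 15.3% of all ORFs), with a median of 0.05.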
